A study of Homo sapiens with 8 samples.

Results

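The BCL2 family genes described here are BCL2, BCL2L1, MCL1, BAX, BAK1, BBC3, PMAIP1, BCL2L11, BID and BIK. They were chosen by name, and their members are all array probes that carry one of these 10 symbols. There are 15 such probes among 50599 non-control probes, and all 15 were among the 28677 probes bright enough to test. The cells were HCT-116, established from a human colorectal carcinoma and grown in DMEM with serum, and RNA of each of 4 groups was measured on 2 one-colour Agilent arrays. WT was the untreated parental line. WT+NU6102 was the same line given 20 µM NU6102, an inhibitor of the cell cycle kinases CDK1 and CDK2, for 24 h. CDK2 KO was a purchased HCT-116 line with the CDK2 gene deleted and no inhibitor named. R50 was a line grown from the start in 50 µM NU6102 and passaged with fresh inhibitor, so its drug dose and time differ from those of WT+NU6102. Per the labels R50 was kept in inhibitor, but whether any was present when its RNA was taken is not stated separately, and each comparison of R50 with WT+NU6102 carries this limit. The sources used here do not say whether either line came from a single clone or whether duplicate arrays came from separate cultures, so p-values measure the spread between these arrays only.

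The BCL2 family decides whether a stressed cell permeabilizes its outer mitochondrial membrane, the step that releases cytochrome c and commits the cell to apoptosis. Guardian proteins (BCL2, BCL-XL encoded by BCL2L1, and MCL1) hold the effectors BAX and BAK, encoded by BAX and BAK1, inactive. BH3-only proteins (PUMA encoded by BBC3, NOXA encoded by PMAIP1, BIM encoded by BCL2L11, BID and BIK) carry stress signals to the guardians and effectors, and several of their genes respond to stress-activated transcription factors such as FOXO factors. Levels of the mRNAs are 1 layer of this control, which also runs through protein stability, phosphorylation and cleavage.

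Each probe has 60 bases, and the letters below are bases 31 to 60 as the array files give them, 5′ to 3′. They are shown for BBC3 and PMAIP1, which had the widest spans of group means when each gene is read by its brightest probe, and for genes whose probes did not give the same result. Capitals mark AATAAA, the hexamer best known as a poly(A) signal. It was searched as AATAAA in all 60 bases of the strand printed and occurred in 2 of the 15 probes, against 3986 of 50599 probes on the array (7.88%).
BBC3 A_23_P382775: tgtaagatactgtatatgcgctgctgtaga
PMAIP1 A_33_P3619171: aatatAATAAAagaacatggggattttgta
BCL2L11 A_33_P3398526: tgactctgactctcggactgagaaacgcaa
BCL2L11 A_33_P3251932: tatggtcattggtgattaAATAAAatgtat
BCL2L11 A_24_P122921: gggtaattgccactttacttgtgcaatact
BCL2 A_33_P3355185: tgtgtgtggagagcgtcaaccgggagatgt
BCL2 A_23_P352266: aaaaatacggtaaggatactttacatggtt
BAX A_33_P3341144: gaccctctgaccctagctctttcctttttt
BAX A_23_P208706: tatggcatttttctgggaggggtggggatt

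On hg19, the build that the WT and WT+NU6102 files name, the BBC3 probe lies on the minus strand at chr19:47724174-47724233 and the PMAIP1 probe on the plus strand at chr18:57570691-57570750. The 3 BCL2L11 probes lie on the plus strand of chromosome 2 in the order printed. The first, at chr2:111878705-111878764, is 7587 bases before the second, at chr2:111886352-111886411, and the third, at chr2:111925892-111925951, follows after another 39480 bases. The array design assigns the first and second to the transcript NM_207002 and the third to NM_138621. The BCL2 probes, at chr18:60985401-60985460 (NM_000657) and chr18:60790723-60790782 (NM_000633) on the minus strand, are 194618 bases apart, and those of BAX, at chr19:49464454-49464513 (NM_004324) and chr19:49464904-49464963 (NM_138764) on the plus strand, 390 bases apart. Whether a probe lies in a coding exon or a UTR is not given in the array files. A gene is represented below by its brightest tested probe, and the other probes are reported beside it.

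Duplicate arrays correlated at r between 0.994 and 0.996 over the tested probes, and between 26446 and 29912 probes per array were well above background. WT and WT+NU6102 were hybridized on 1 slide and CDK2 KO and R50 on another, which was scanned on a different day. The inhibitor is thus compared with WT, and R50 with CDK2 KO, within a slide. For every other pair of groups the slide and scan day cannot be told apart from the group. The CDK2 probe was lower in CDK2 KO (log2 fold change -0.77, adjusted p = 0.000268, limma) but well above background on all 8 arrays, and whether it lies in the deleted part is not given. Of 8 colonic epithelial markers 7 were clearly detected on every array, and VIL1 was at background on all of them. Their summed signal, in multiples of each array's 75th percentile, was 528 to 536 in WT, 634 to 658 in WT+NU6102, 654 to 677 in CDK2 KO and 836 to 840 in R50. Of 8 fibroblast, leukocyte and endothelial markers, COL1A1, PTPRC and VWF were clearly detected on each of the 8 arrays. CD3E was detected on 4 arrays and DCN and PECAM1 on 1 each, while COL1A2 and LUM were well above background on no array. The summed signal of all 8 markers lay between 0.641 and 0.982. It was higher in CDK2 KO (0.936 to 0.982) and R50 (0.852 to 0.976) than in WT (0.680 to 0.682). The part of these marker shifts in the results below was not tested. In such bulk RNA, fewer cells of a type and less RNA per cell cannot be told apart.

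All levels are log2 processed signals relative to the 75th percentile of the same array, and a change is called at a Benjamini-Hochberg adjusted p under 0.05 over all tested probes in limma. After 24 h of NU6102, 5 of the 10 genes rose (BCL2, BCL2L1, BAK1, PMAIP1 and BID) and 2 fell (BBC3 and BAX), where 29.1% of all 15317 genes tested were called higher and 24.1% lower. In CDK2 KO against WT, BAX and BAK1 rose and BCL2L1 fell, with 19.6% of all genes called higher and 16.5% lower. In R50 against WT, BBC3 and BCL2L1 rose and PMAIP1 and BID fell, with 12.2% of all genes called higher and 15.6% lower. The median absolute log2 fold change of the 10 genes was 0.32, 0.19 and 0.13 in these comparisons, and that of all genes was 0.30, 0.20 and 0.17. All 3 comparisons share the WT arrays.

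R50 differed from CDK2 KO in 7 of the 10 genes. BCL2L1 and BBC3 were higher in R50 and MCL1, BAX, BAK1, PMAIP1 and BID lower, where 16.9% of all genes were called higher and 24.3% lower. R50 differed from WT+NU6102 in 8 genes. BCL2L1, BAX and BBC3 were higher and BCL2, MCL1, BAK1, PMAIP1 and BID lower, with 26.1% of all genes called higher and 34.1% lower. Calls in CDK2 KO against WT+NU6102 are used only for the order of the group levels, and 29.2% of all genes were higher and 31.3% lower there.

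When the change also had to reach 1 on the log2 scale in either direction, 1 member passed for WT+NU6102 against WT (BBC3, with 6.69% of all genes) and 2 for R50 against WT+NU6102 (BBC3 and PMAIP1, with 11.8%). None of the 10 passed for CDK2 KO against WT (5.03% of all genes), R50 against WT (2.74%) or R50 against CDK2 KO (5.43%). Without this minimum limma called 3, 4 and 7 of them there. These counts read each gene by its brightest probe. The other BCL2 probe passed for WT+NU6102 against WT (log2 fold change 1.16) and for R50 against CDK2 KO (1.38). Over the 4 groups together the F-test at an adjusted p under 0.001 was passed by BBC3, PMAIP1, BAX, BCL2L1 and BAK1, which is 5 of 10 genes against 27.6% of all genes. This count fell to between 0 and 2 in limma when any 1 array was left out, to 2 with a replicate block and to 1 without the filter on dim probes.

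**Figure D1:**
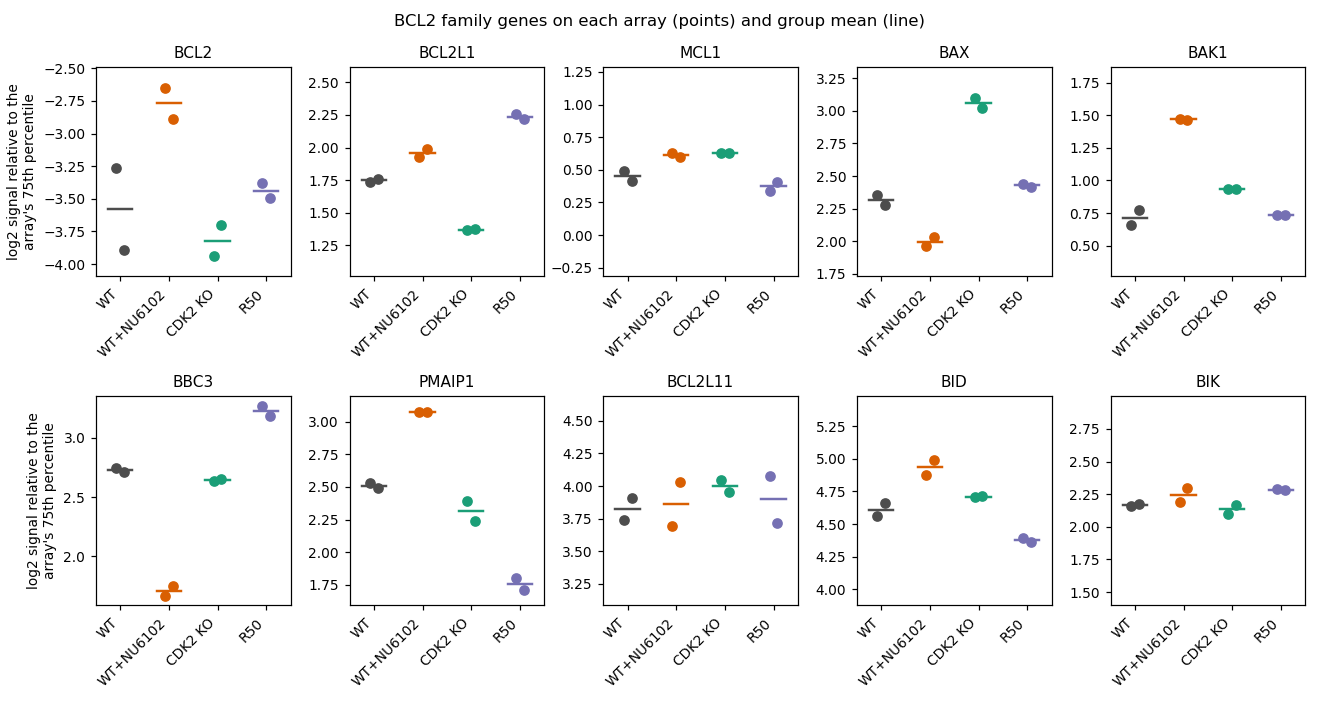
Log2 signal relative to the array's 75th percentile (y axis, a separate range in each panel) of the brightest probe of each gene in the 4 groups (x axis); each point is 1 of 2 arrays and each line the group mean. BBC3 is lowest in WT+NU6102 and highest in R50, PMAIP1 is highest in WT+NU6102 and lowest in R50, and the duplicates of BCL2 in WT and of BCL2L11 in WT+NU6102 and R50 lie far apart.

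BBC3 and PMAIP1, both BH3-only genes, showed the widest spans of the 10 genes on the brightest probes and ran in opposite directions. The BBC3 level was 2.75 and 2.72 on the WT arrays, 1.67 and 1.75 in WT+NU6102, 2.64 and 2.65 in CDK2 KO, and 3.27 and 3.18 in R50. No array of WT+NU6102 or R50 overlapped with another group. BBC3 fell by 1.02 ± 0.06 (SE) on the log2 scale after 24 h of NU6102 (2.03-fold lower, adjusted p = 0.000187, limma). In R50 it was 0.50 ± 0.06 higher than in WT (1.41-fold, adjusted p = 0.00414) and 0.58 ± 0.06 higher than in CDK2 KO on the same slide (1.50-fold, adjusted p = 0.00115). CDK2 KO and WT, neighbours in the order of levels, were not called different (log2 fold change -0.09, 95% interval -0.23 to 0.05). WT+NU6102 and R50 stood at opposite ends, with R50 2.87-fold above WT+NU6102 (log2 fold change 1.52 ± 0.06, adjusted p = 3.22e-05).

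The PMAIP1 level was 2.53 and 2.49 in WT, 3.08 and 3.07 in WT+NU6102, 2.39 and 2.24 in CDK2 KO, and 1.80 and 1.71 in R50. Both WT+NU6102 arrays were above and both R50 arrays below all other arrays. PMAIP1 rose 1.48-fold after 24 h of NU6102 (log2 fold change 0.56 ± 0.07, adjusted p = 0.00166, limma). In R50 it fell by 0.75 ± 0.07 on the log2 scale against WT (1.68-fold lower, adjusted p = 0.00224) and by 0.56 ± 0.07 against CDK2 KO on the same slide (1.47-fold lower, adjusted p = 0.00267). R50 was 2.49-fold below WT+NU6102 (log2 fold change -1.32, adjusted p = 7.63e-05). The lower mean of CDK2 KO against WT missed the threshold (log2 fold change -0.19, 95% interval -0.36 to -0.02, adjusted p = 0.0855), and it passed with normexp background correction (-0.26, adjusted p = 0.0145) and when limma's prior variance was let to vary with intensity (adjusted p = 0.0223).

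The guardian genes did not all share a pattern. Against WT, BCL2L1 and both BCL2 probes were higher in WT+NU6102 and R50 and lower in CDK2 KO. Not all of these changes were called. MCL1 had the other sign in CDK2 KO and R50, where it was not called. BCL2L1, which encodes BCL-XL, read 1.74 and 1.76 in WT, 1.93 and 1.99 in WT+NU6102, 1.37 and 1.37 in CDK2 KO, and 2.26 and 2.22 in R50. The 4 groups did not overlap, and each differed from its neighbour in the order R50, WT+NU6102, WT, CDK2 KO. The largest difference lay within 1 slide, with R50 1.82-fold above CDK2 KO (log2 fold change 0.87 ± 0.05, adjusted p = 0.000209, limma). Against WT, BCL2L1 was 1.40-fold higher in R50 (log2 fold change 0.49 ± 0.05, adjusted p = 0.00276) and 1.30-fold lower in CDK2 KO (-0.38 ± 0.05, adjusted p = 0.00327). The rise with NU6102 was smaller (log2 fold change 0.21 ± 0.05, adjusted p = 0.0164). This call was lost under quantile normalization (0.09, adjusted p = 0.139) and without WT replicate 1 (0.20, adjusted p = 0.0741), WT replicate 2 (0.22, adjusted p = 0.0568) or WT+NU6102 replicate 2 (0.18, adjusted p = 0.0843).

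MCL1, a short-lived guardian whose protein is bound by NOXA, varied least among the guardians. Its level was 0.49 and 0.41 in WT, 0.63 and 0.59 in WT+NU6102, 0.63 and 0.63 in CDK2 KO, and 0.34 and 0.41 in R50. In the order of levels, CDK2 KO, WT+NU6102, WT and R50, no neighbours were called different, although both WT+NU6102 arrays lay above those of WT. The changes against WT were 0.16 in WT+NU6102 (95% interval 0.03 to 0.29, adjusted p = 0.0561), 0.18 in CDK2 KO (0.05 to 0.31, adjusted p = 0.0530) and -0.08 in R50 (-0.21 to 0.06, adjusted p = 0.350). The first was called under 4 alternatives, among them the authors' processed values (0.17, adjusted p = 0.0454), and the second under 4, among them normexp background correction (0.20, adjusted p = 0.0321). R50 was lower than CDK2 KO (log2 fold change -0.26 ± 0.05, adjusted p = 0.0156) and than WT+NU6102 (-0.24 ± 0.05, adjusted p = 0.0127). Without CDK2 KO replicate 1, CDK2 KO replicate 2 or R50 replicate 1 the first call was lost (adjusted p = 0.0699 to 0.0720), and without WT+NU6102 replicate 1 or R50 replicate 1 the second (adjusted p = 0.0625 and 0.0618).

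BCL2 was dim, and its brightest probe was noisy, with levels of -3.27 and -3.89 in WT, -2.65 and -2.89 in WT+NU6102, -3.94 and -3.70 in CDK2 KO, and -3.38 and -3.50 in R50. Both WT+NU6102 arrays were above all others, and the WT arrays spanned those of R50. By this probe BCL2 rose 1.76-fold with NU6102 (log2 fold change 0.81 ± 0.22, adjusted p = 0.0294, limma), a call lost without WT replicate 2 (0.50, adjusted p = 0.0684), WT+NU6102 replicate 1 (0.69, adjusted p = 0.122) or WT+NU6102 replicate 2 (0.93, adjusted p = 0.0626). Its lower level in R50 than in WT+NU6102 (-0.67 ± 0.22, adjusted p = 0.0486) was lost without any 1 array of WT+NU6102, CDK2 KO or R50 (adjusted p = 0.0692 to 0.182). The other BCL2 probe, printed on 10 spots per array, gave -4.14 and -4.48 in WT, -3.15 and -3.15 in WT+NU6102, -5.13 and -5.12 in CDK2 KO, and -3.68 and -3.81 in R50. The groups did not overlap on this probe, and it was well above background on 1 of the 2 CDK2 KO arrays. It rose 2.24-fold with NU6102 (log2 fold change 1.16 ± 0.12, adjusted p = 0.000880) and 1.48-fold in R50 (0.57 ± 0.12, adjusted p = 0.0233) and fell by 0.81 ± 0.12 in CDK2 KO (adjusted p = 0.00514). R50 was 2.60-fold above CDK2 KO on the same slide (log2 fold change 1.38 ± 0.12, adjusted p = 0.000776), a fold measured against a group in which 1 of 2 arrays was not well above background. The brightest probe has the same sign in each of these comparisons, but its intervals for CDK2 KO (-0.79 to 0.31) and R50 (-0.40 to 0.69) against WT and for R50 against CDK2 KO (-0.17 to 0.93, adjusted p = 0.236) include 0.

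**Figure D2:**
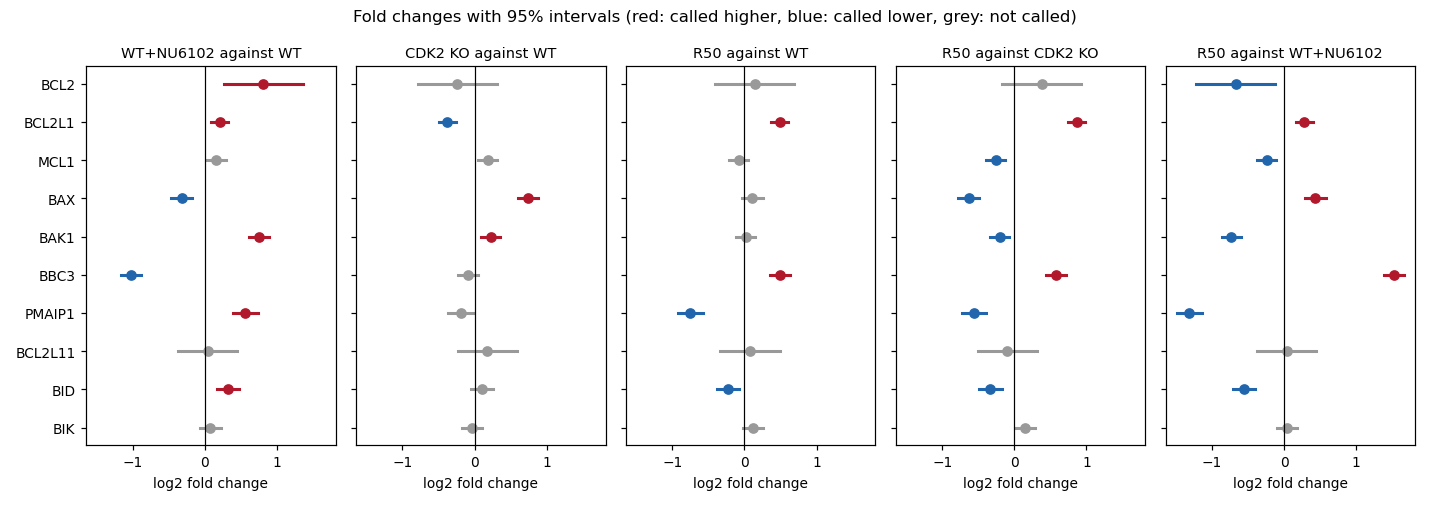
Log2 fold changes (x axis) of the brightest probe of each gene (y axis) in 5 comparisons, with 95% intervals from limma as bars; red and blue mark genes called higher and lower, grey those not called. R50 against WT+NU6102 holds the widest differences, BBC3 at 1.52 and PMAIP1 at -1.32, and the long bars of BCL2 and BCL2L11 show the spread of their duplicates.

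On their brightest probes the 2 effector genes were called in opposite directions with NU6102. Both were called higher in CDK2 KO than in WT, which lay on another slide. BAX, whose product inserts into the outer mitochondrial membrane, read 2.35 and 2.28 in WT, 1.96 and 2.03 in WT+NU6102, 3.10 and 3.02 in CDK2 KO, and 2.44 and 2.41 in R50. The CDK2 KO arrays were above and the WT+NU6102 arrays below all others. BAX was 1.67-fold higher in CDK2 KO than in WT (log2 fold change 0.74 ± 0.06, adjusted p = 0.000670, limma), and R50 was 1.55-fold below CDK2 KO on the same slide (-0.63 ± 0.06, adjusted p = 0.000988). With NU6102 it fell by 0.32 ± 0.06 on the log2 scale (adjusted p = 0.00670), and R50 and WT were not called different (0.11, 95% interval -0.03 to 0.25). The second BAX probe gave the rise in CDK2 KO (0.58 ± 0.05, adjusted p = 0.000860) and the lower level in R50 than in CDK2 KO (-0.65 ± 0.05, adjusted p = 0.000534). On that probe the change with NU6102 was -0.10 (95% interval -0.22 to 0.02) and was not called. R50 and WT+NU6102 overlapped on it (0.03, 95% interval -0.09 to 0.15, adjusted p = 0.618), so the higher BAX level in R50 than in WT+NU6102 (0.43, adjusted p = 0.00164) rests on the brightest probe.

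BAK1, the other effector, read 0.66 and 0.77 in WT, 1.47 and 1.46 in WT+NU6102, 0.94 and 0.94 in CDK2 KO, and 0.74 and 0.73 in R50. The WT+NU6102 arrays were above all others, and the R50 arrays lay between those of WT. BAK1 rose 1.68-fold with NU6102 (log2 fold change 0.75 ± 0.05, adjusted p = 0.000342, limma), and R50 was 1.66-fold lower than WT+NU6102 (adjusted p = 0.000192). CDK2 KO lay between, 0.53 below WT+NU6102 (adjusted p = 0.000595) and 0.22 above WT (adjusted p = 0.0284). R50 did not differ from WT beyond the spread (0.02, 95% interval -0.11 to 0.15) and was 0.20 below CDK2 KO (adjusted p = 0.0345). The call in CDK2 KO against WT was lost without WT replicate 1, either WT+NU6102 replicate or either CDK2 KO replicate (log2 fold change 0.17 to 0.22, adjusted p = 0.0533 to 0.114), and that in R50 against CDK2 KO without any 1 array of WT+NU6102, CDK2 KO or R50 (adjusted p = 0.0619 to 0.122).

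Of the remaining BH3-only genes, BCL2L11 was the one whose probes gave different answers. BIM, its product, is made in several splice forms. The probe at the far 3′ position (NM_138621) read 0.79 and 0.71 in WT, 1.71 and 1.77 in WT+NU6102, 1.51 and 1.53 in CDK2 KO, and 1.19 and 1.16 in R50. The groups did not overlap. On this probe BCL2L11 rose 1.99-fold with NU6102 (log2 fold change 0.99 ± 0.05, adjusted p = 0.000171, limma), 1.71-fold in CDK2 KO (0.77 ± 0.05, adjusted p = 0.000435) and 1.34-fold in R50 (0.43 ± 0.05, adjusted p = 0.00530).

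The probe nearest the 5′ end of the gene among the 3 read -0.01 and 0.03 in WT, 0.52 and 0.62 in WT+NU6102, 0.33 and 0.31 in CDK2 KO, and 0.01 and 0.04 in R50. It also rose with NU6102 (log2 fold change 0.56 ± 0.05, adjusted p = 0.000775) and in CDK2 KO (0.31 ± 0.05, adjusted p = 0.00911), while R50 overlapped with WT (0.02, 95% interval -0.11 to 0.15). Both of these probes were lower in R50 than in CDK2 KO on the same slide, by 0.34 and 0.30 on the log2 scale (adjusted p = 0.00531 and 0.00989). The brightest probe lies between them and holds the AATAAA printed above. It read 3.74 and 3.91 in WT, 3.69 and 4.03 in WT+NU6102, 4.05 and 3.95 in CDK2 KO, and 4.08 and 3.72 in R50, so that groups overlapped. It gave no call in any comparison, with 95% intervals of -0.37 to 0.45 for WT+NU6102, -0.23 to 0.59 for CDK2 KO and -0.33 to 0.49 for R50 against WT. Its SE of 0.16 compares with a median SE of 0.07 over the tested genes. The intervals of this probe and of the far 3′ probe do not meet for WT+NU6102 (0.86 to 1.12 for the latter). Because the brightest probe stands for the gene, BCL2L11 is counted above as not called, and the mean of its 3 probes was called higher in WT+NU6102 (0.53, adjusted p = 0.00159) and CDK2 KO (0.42, adjusted p = 0.00654).

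**Figure D3:**
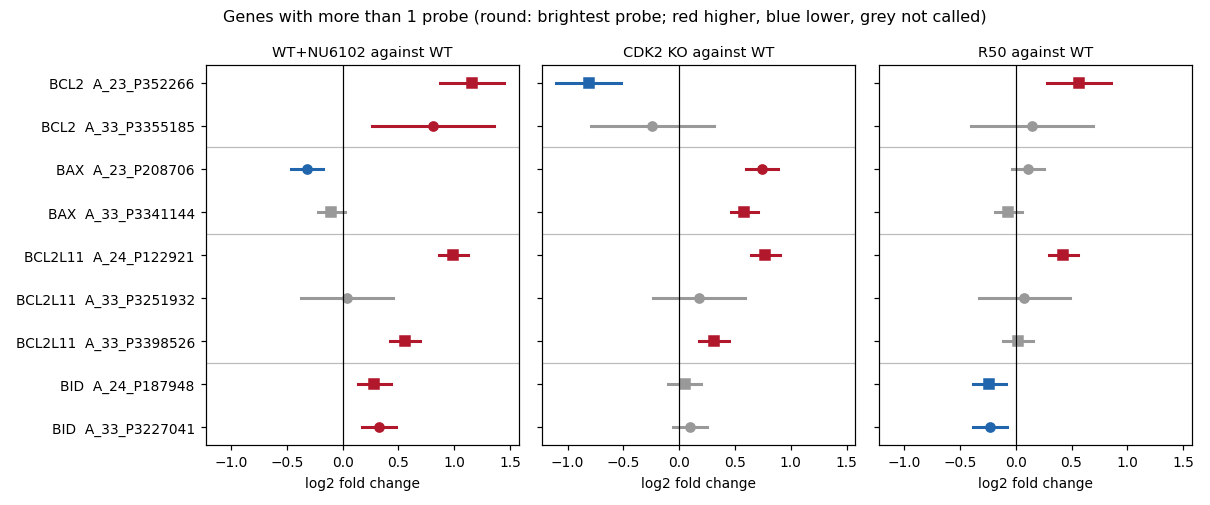
Log2 fold changes against WT (x axis) of each probe of the 4 genes with more than 1 probe (y axis), with 95% intervals from limma; round points mark the brightest probe, red and blue the probes called higher and lower, and grey those not called. The 2 BID probes coincide, while the brightest BCL2L11 probe stays near 0 where the other BCL2L11 probes rise by 0.99 and 0.56 with NU6102.

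BID, which links death receptors to mitochondria once caspase-8 cleaves its product, was higher than WT in WT+NU6102 and lower than WT in R50. Its brightest probe read 4.56 and 4.66 in WT, 4.88 and 4.99 in WT+NU6102, 4.70 and 4.71 in CDK2 KO, and 4.39 and 4.37 in R50. The WT+NU6102 arrays were above and the R50 arrays below all others. BID rose 1.25-fold with NU6102 (log2 fold change 0.33 ± 0.06, adjusted p = 0.00855, limma), and the change in CDK2 KO was not called (0.10, 95% interval -0.06 to 0.25). R50 was 1.47-fold below WT+NU6102 (-0.56 ± 0.06, adjusted p = 0.000826) and 1.26-fold below CDK2 KO on the same slide (adjusted p = 0.0113). The last call was lost without CDK2 KO replicate 1, CDK2 KO replicate 2 or R50 replicate 2 (adjusted p = 0.0512 to 0.0567). The lower level in R50 than in WT (-0.23 ± 0.06, adjusted p = 0.0491) was close to the threshold and was lost when any 1 of the 8 arrays was left out (-0.28 to -0.18, adjusted p = 0.0579 to 0.186). The second BID probe, 23 bases away, gave 0.29 for WT+NU6102, 0.05 for CDK2 KO and -0.24 for R50 against WT.

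BIK, a BH3-only gene whose product acts at the endoplasmic reticulum, had the smallest span of group means among the 10 genes (0.15 on the log2 scale). It read 2.16 and 2.18 in WT, 2.19 and 2.30 in WT+NU6102, 2.10 and 2.17 in CDK2 KO, and 2.29 and 2.28 in R50. No comparison was called by limma, neighbours in the order of levels included. The changes against WT were 0.08 in WT+NU6102 (95% interval -0.06 to 0.22), -0.03 in CDK2 KO (-0.18 to 0.11) and 0.12 in R50 (-0.02 to 0.26). BIK was called higher in R50 than in CDK2 KO with quantile normalization (0.20, adjusted p = 0.0410) and with limma's intensity-dependent prior variance (0.15, adjusted p = 0.0305), and higher in R50 than in WT+NU6102 with the former (0.17, adjusted p = 0.0497).

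Other genes of the apoptosis pathway were described from fixed lists, naming for each comparison up to 4 of the called genes with the largest changes. Each list count is to be read beside the share of all genes called. Higher and lower, this was 29.1% and 24.1% with NU6102, 19.6% and 16.5% in CDK2 KO and 12.2% and 15.6% in R50 against WT. It was 16.9% and 24.3% in R50 against CDK2 KO and 26.1% and 34.1% in R50 against WT+NU6102. Of 13 other BCL2 family genes 10 were tested, and BCL2L10, BCL2L14 and BMF were not bright enough. With NU6102 5 of the 10 rose and 1 fell (median log2 fold change 0.24 against 0.04 over all genes). BNIP3, a mitophagy receptor induced by hypoxia, rose 1.55-fold (log2 fold change 0.63, adjusted p = 0.000447, limma), BCL2L12 rose 1.46-fold, BCL2L2, a guardian, 1.27-fold and BAD, a BH3-only gene, 1.20-fold. In CDK2 KO 3 rose and 4 fell (median 0.11 against 0.02). HRK, another BH3-only gene, was 1.95-fold lower (-0.97, adjusted p = 0.00103), BCL2A1, a guardian, was 1.40-fold lower and BNIP3 1.35-fold lower, while BNIP3L rose 1.46-fold on its brightest probe (0.54), with 0.48 called and 0.08 not called on its other probes. In R50 against WT the called genes were HRK (-0.54), BCL2L12 (-0.38) and the effector-like BOK (-0.29), which fell (median 0.01 against -0.04). BCL2A1 was 1.63-fold higher in R50 than in CDK2 KO on the same slide (adjusted p = 0.000931), where 4 rose and 5 fell. In R50 against WT+NU6102 1 rose and 5 fell, BCL2L12 by 0.92 on the log2 scale. The gene that rose was BNIP3L, by 0.36 on its brightest probe and by 2.16 and 2.60 on the others (adjusted p = 2.06e-05 and 1.74e-05, limma).

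All 13 genes for the apoptosome, the caspases and the proteins that mitochondria release were tested. With NU6102 6 rose and 3 fell (median 0.03 against 0.04 over all genes). CASP9, the caspase activated on the apoptosome, fell by 0.51 on the log2 scale (adjusted p = 0.000893, limma). CYCS, encoding cytochrome c, rose by 0.70 and CASP10 by 0.91 on their brightest probes, but another probe of each was called lower (-0.46 for CYCS and -1.11 for CASP10), so neither gene has a settled direction here. In CDK2 KO 4 rose and 2 fell (median 0.10 against 0.02). CASP10 was 2.04-fold lower (-1.03, adjusted p = 0.000346, with another of its probes not called at -0.36), CASP9 fell by 0.32, and CASP6 (0.38) and AIFM1 (0.30) rose. In R50 against WT 2 genes were called and both fell (median -0.10 against -0.04), among them APAF1, the apoptosome scaffold, by 0.59 (adjusted p = 0.0302, limma). APAF1 was dim on its 1 tested probe, at -3.76 and -3.93 in WT and -4.27 and -4.60 in R50. In R50 against CDK2 KO 2 rose and 6 fell, APAF1 by 0.85, and in R50 against WT+NU6102 2 rose and 6 fell, with CASP9 0.49 higher.

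Of 7 inhibitor of apoptosis genes 6 were tested, and BIRC7 was not bright enough. With NU6102 1 was called (median -0.07 against 0.04 over all genes), NAIP, which fell by 1.23 on the log2 scale (2.35-fold lower, adjusted p = 0.000645, limma). NAIP has near-identical copies in the genome, so its signal may include theirs. In CDK2 KO 3 rose and 2 fell (median 0.12 against 0.02). BIRC3, encoding cIAP2, was 2.81-fold lower (-1.49, adjusted p = 0.000701), and BIRC5, encoding survivin, 1.42-fold lower, while NAIP (0.46, and 0.19 not called on another probe) and XIAP, the main caspase inhibitor, (0.38) rose. In R50 against WT only BIRC3 was called among the 6 (-0.49, adjusted p = 0.0365, median -0.07 against -0.04). BIRC3 was 2.01-fold higher in R50 than in CDK2 KO (adjusted p = 0.00222), where 2 rose and 2 fell, and against WT+NU6102 1 rose, NAIP, by 1.57.

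Of 12 death receptor genes 10 were tested, and the ligands FASLG and TNFSF10 were not bright enough. The receptors for TRAIL, the product of TNFSF10, did not share a pattern. TNFRSF10A, a signalling receptor, read 0.50 and 0.43 in WT and 1.93 and 1.95 in WT+NU6102, a 2.78-fold rise (log2 fold change 1.47, adjusted p = 9.95e-05, limma). R50 read 0.36 and 0.38, 2.96-fold below WT+NU6102 (adjusted p = 2.78e-05), and neither CDK2 KO (-0.14) nor R50 (-0.09) was called against WT. TNFRSF10B, the other signalling receptor, was not called with NU6102 (0.13, adjusted p = 0.0788) and rose by 0.23 in CDK2 KO and by 0.29 in R50. TNFRSF1A, a TNF receptor, fell by 0.48 in CDK2 KO (adjusted p = 0.00176). TNFRSF10D, a decoy receptor, rose 2.32-fold with NU6102, 1.97-fold in CDK2 KO and 1.57-fold in R50. TNFRSF10C, another decoy receptor, was dim in WT (-2.00 and -1.77), fell 2.15-fold with NU6102 (adjusted p = 0.00438) and was 4.44-fold higher in R50 (adjusted p = 0.00168), 2.21-fold higher in CDK2 KO (adjusted p = 0.00666) and 9.57-fold higher in R50 than in WT+NU6102 (adjusted p = 8.38e-05). With NU6102 4 of the 10 genes rose and 2 fell (median 0.09 against 0.04 over all genes, of which 29.1% rose and 24.1% fell). In CDK2 KO 4 rose and 2 fell (median 0.17 against 0.02, with 19.6% and 16.5% of all genes). In R50 against WT 4 rose (median 0.06 against -0.04, with 12.2% of all genes called higher). Among these was FAS (0.33 on its brightest probe, with 1 of its other probes not called at 0.24). In R50 against CDK2 KO 3 rose and 2 fell, and against WT+NU6102 3 rose and 3 fell. The rise of CFLAR, a caspase-8 inhibitor, in CDK2 KO (0.32) rests on its brightest probe, and 2 of its other probes were called lower (-0.24 and -0.47).

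All 10 regulators of BCL2 family genes and proteins were tested. With NU6102 7 rose and 1 fell (median 0.24 against 0.04 over all genes). FBXW7, which encodes a subunit of a ubiquitin ligase for MCL1, rose by 0.48 on the log2 scale (adjusted p = 0.00384, limma), TP73, encoding a transcription factor, by 0.37, and HUWE1, encoding another ubiquitin ligase for MCL1, by 0.29. In CDK2 KO 1 rose and 2 fell (median 0.11 against 0.02), FOXO3, an activator of BCL2L11 and BBC3, by 0.40 upward and E2F1 and HUWE1 by 0.24 downward each. The second HUWE1 probe was not called in either comparison (0.03 in both), nor was the second TP73 probe with NU6102 (0.30, adjusted p = 0.0661). One other FOXO3 probe was called in CDK2 KO (0.33) and another was not (0.10). In R50 against WT only FOXO3 was called among the 10 (0.33, adjusted p = 0.0109, median 0.09 against -0.04), with 0.21 called and 0.11 not called on its other probes. In R50 against CDK2 KO 1 fell, TP73 (-0.52, and -0.34 not called on its second probe, adjusted p = 0.0543), and against WT+NU6102 4 rose and 5 fell, TP73 by 0.63 downward.

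**Figure D4:**
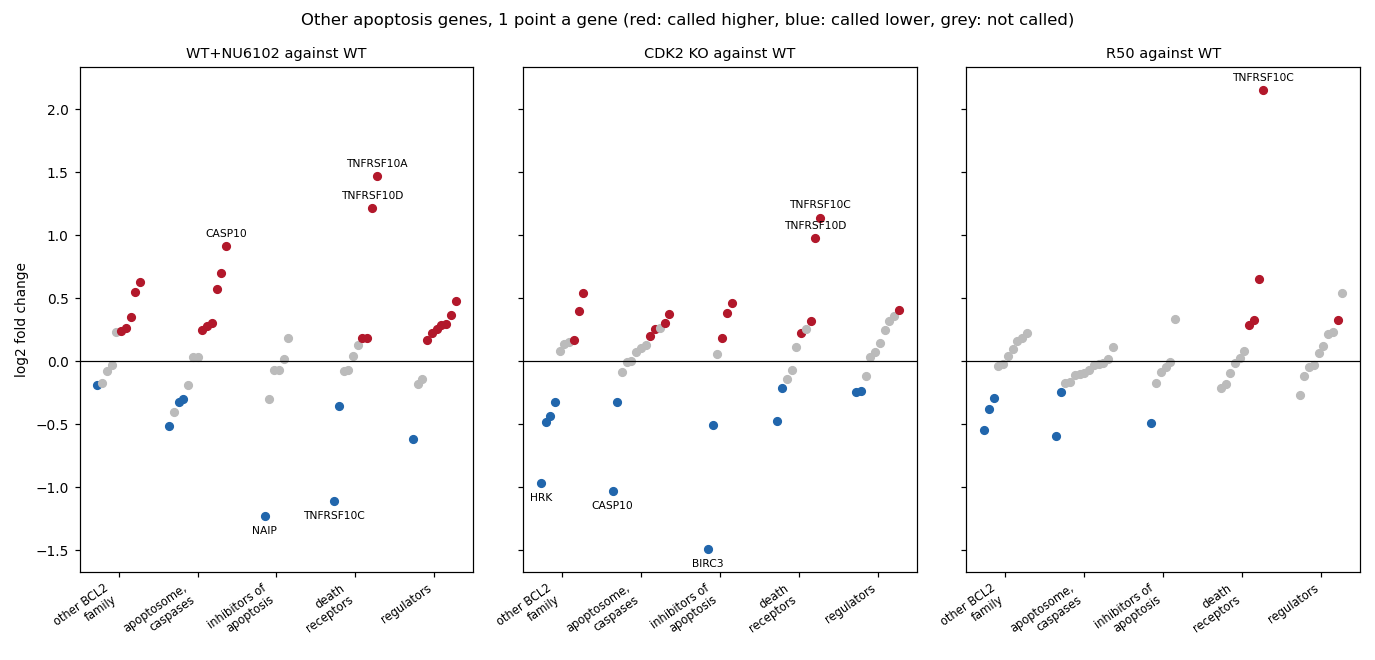
Log2 fold changes (y axis) of the genes of 5 other apoptosis lists (x axis), 1 point per tested gene, in WT+NU6102, CDK2 KO and R50 against WT; red and blue mark genes called higher and lower by limma, grey those not called. TNFRSF10A stands out with NU6102 at 1.47, BIRC3 in CDK2 KO at -1.49 and TNFRSF10C in R50 at 2.15.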

How the data were processed

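Scanner output of 8 one-colour arrays was used. For every spot the authors deposited a background-subtracted intensity, made with Agilent Feature Extraction 11.5.1.1. A second file the authors deposited gives 28719 probes as log2 values that GeneSpring GX produced and that are centred per probe, without comparison columns. Analysis was in R 4.3.3, with the package data.table at version 1.17.8. Flagged outliers and control spots were dropped, no spot was saturated, the 75th percentile of each array's log2 signal was subtracted, and a probe's spots were averaged. A probe was tested if both arrays of some group had it well above background (28677 of 50599). Tested probes name 15317 genes by a RefSeq symbol or synonym. Limma 3.58.1 fitted the 4 groups together, two-sided, with Benjamini-Hochberg adjustment over tested probes, and was tested on simulated data. With 2 arrays per group, array number limits the precision. The members and gene lists were chosen with earlier results of these data known. Genes of other lists were named by the size of their change among called genes that all compared arrays detected. Some genes that this rule names are counted in their lists but not reported here by name. Alternatives changed the background correction, scaling, dim-probe filter, thresholds, prior variance and choice of probe. Others used the authors' values, the methods' ANOVA, a pairwise t-test, a replicate block or 1 slide alone, or left out an array. Figures used Python 3.11.15, numpy 2.4.6 and matplotlib 3.10.9.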

Additional observations from a re-analysis of the deposited data

How the results depend on the processing

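Of 50 member gene comparisons 29 were called, and all 29 kept their direction under every alternative run. Leaving aside the pairwise t-test and the fit without the filter on dim probes, 20 of the 29 also stayed called under every alternative. Counts of called members are given here where they moved by over 1.5 times. For CDK2 KO against WT the count was 3, and it was 5 with normexp correction, 5 with the intensity-dependent prior and 6 with probes averaged. Of all 15317 genes tested, 5529 were called in the main fit and 6094 with normexp correction. For R50 against CDK2 KO it was 7, and 4 without the filter on dim probes and 4 at an adjusted p under 0.01. The post hoc Student Newman Keuls test that the paper names was not run. A pairwise t-test with Benjamini-Hochberg adjustment called 3 members for WT+NU6102 against WT, 1 for CDK2 KO against WT and 0 for R50 against WT. It called 3 for R50 against CDK2 KO and 5 for R50 against WT+NU6102. Without the adjustment it called 5, 4, 5, 8 and 8 in that order, with no share of all genes to set beside either set of counts. Requiring the minimum fold change left 1, 0, 0, 0 and 2 in the same order of comparisons. The F-test was passed by 5 genes, and by 8 at an adjusted p under 0.05, 1 without the filter and 2 in the methods' ANOVA. Across fits without 1 array, R50 against CDK2 KO had 4 to 7 calls and the F-test 0 to 2, so the F-test count rests on all 8 arrays being present. Except for normexp correction and the minimum fold change, the share of all genes called under these alternatives is not given here. The shifts are therefore not read as a trait of the members. Their cause was not tested.

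Arrays with the same replicate number did not deviate together over the tested probes (correlation of deviations -0.03 to 0.05). Whether samples of the same number were prepared together is not given. With a replicate block 2 genes passed the F-test, and 3 calls were lost, BID in R50 against WT, BAK1 in R50 against CDK2 KO and BCL2 in R50 against WT+NU6102 (adjusted p = 0.0596, 0.0524 and 0.0537). With the 4 arrays of 1 slide alone BCL2 and BCL2L1 lost their calls for WT+NU6102 against WT (adjusted p = 0.0804 and 0.0597) and MCL1 and BAK1 theirs for R50 against CDK2 KO (adjusted p = 0.0543 and 0.0689).

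Signs turned only for values that limma had not called in the first place. BCL2L11 became -0.13 for WT+NU6102 against WT with quantile normalization, and for R50 against WT+NU6102 -0.0036 with normexp correction and -0.36 with probes averaged, the latter called (adjusted p = 0.00631). BIK became -0.0068 for WT+NU6102 against WT with quantile normalization. Without 1 array, BCL2L11 ranged from -0.13 to 0.21 for WT+NU6102 against WT, -0.10 to 0.26 for R50 against WT, -0.28 to 0.082 for R50 against CDK2 KO and -0.14 to 0.22 for R50 against WT+NU6102. BCL2 ranged from -0.55 to 0.074 for CDK2 KO and -0.17 to 0.46 for R50 against WT, BAK1 from -0.037 to 0.076 for R50 against WT, and BIK from -0.068 to 0.00048 for CDK2 KO against WT and -0.015 to 0.095 for R50 against WT+NU6102. No array had a saturated spot, and signal over background limits the dimmer BCL2 probe, which 1 CDK2 KO array did not have well above background.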
